A study of Mus musculus with 20 samples.

Results

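The 9 genes described here are the cyclins, cyclin-dependent kinases (CDKs) and CDK inhibitors of the G1 phase that were listed for this description: the D-type cyclins Ccnd2 and Ccnd3, the E-type cyclins Ccne1 and Ccne2, the kinases Cdk2, Cdk4 and Cdk6, and the inhibitors Cdkn1a (p21) and Cdkn1b (p27). They were taken by symbol from the RNA-seq tables and are 9 of 23992 gene symbols, and 15 of the 31682 transcripts listed carry one of these symbols. Where a gene had several transcripts, the one that drew most reads in the 20 libraries together stands for it. Regulatory T cells (Tregs) were sorted by GFP from spleen and lymph node of B6-Foxp3EGFP mice, in which GFP marks cells that express Foxp3. For CD8+ T cells the isolation protocol names C57BL/6J mice, while the strain label of every sample reads C57BL/6N. Cells of each type were left unstimulated or were given 200 nM IL-2 or 200 nM IL-2-REH, an IL-2 mutein made as a partial agonist, for 90 min or 4 hr. Each of the 5 Treg groups holds 3 libraries and each of the 5 CD8+ groups holds 1. The ages of the mice, and whether replicates came from separate animals, are not given in the labels, so the p-values below measure the spread between these samples, which may be technical.

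D-type cyclins bind CDK4 and CDK6, and the active complexes phosphorylate the retinoblastoma protein, which frees E2F transcription factors to switch on S phase genes. Cyclin E with CDK2 follows and completes the step from G1 to S phase. p21 and p27 bind these complexes and hold CDK2 in check, and p27 is abundant in resting lymphocytes. In T cells, IL-2 acts through its receptor, JAK kinases and STAT5, and the transition from G1 to S phase is the classical endpoint of IL-2 signaling.

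Read counts summed over the libraries' genes ranged from 20201397 to 63903766 in Tregs, with a median of 42756569, and from 38201667 to 45189834 in CD8+ T cells. The labelled cell types matched their markers: summed RPKM of 6 Treg markers was 810 to 1492 in Treg libraries and 37.4 to 93.0 in CD8+ libraries, where Foxp3 itself stayed at or below 0.999 RPKM, and the sum of Cd8a and Cd8b1 was 4.46 to 12.7 in Tregs and at least 281.9 in CD8+ T cells. Replicate 1 of the unstimulated Tregs stood apart from replicates 2 and 3, so comparisons with unstimulated Tregs are given with and without it where leaving it out moved a call or a value. In bulk RNA, fewer cells that use a gene and less RNA per cell cannot be told apart.

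All 9 genes were detected in all 20 libraries. Levels are given as RPKM, a read count scaled by both transcript length and library depth, which allows genes to be compared per length. Over the 15 Treg libraries the order of median RPKM was Cdkn1b (80.3), Ccnd2 (56.5), Ccnd3 (24.9), Cdk4 (21.8), Cdkn1a (19.2), Cdk2 (11.7), Cdk6 (7.64), Ccne1 (1.61) and Ccne2 (0.916). The neighbours Ccnd3, Cdk4 and Cdkn1a overlapped widely, as did Cdk2 with Cdk6 and Ccne1 with Ccne2. Cdkn1b was the steadiest inhibitor, between 68.5 and 95.5 RPKM in every Treg library, whereas Cdkn1a ran from 1.49 to 32.5. The rarest transcript, Ccne2, rested on 18 to 451 reads per library and Ccne1 on 113 to 669, against 8718 or more for Ccnd2.

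**Figure D1:**
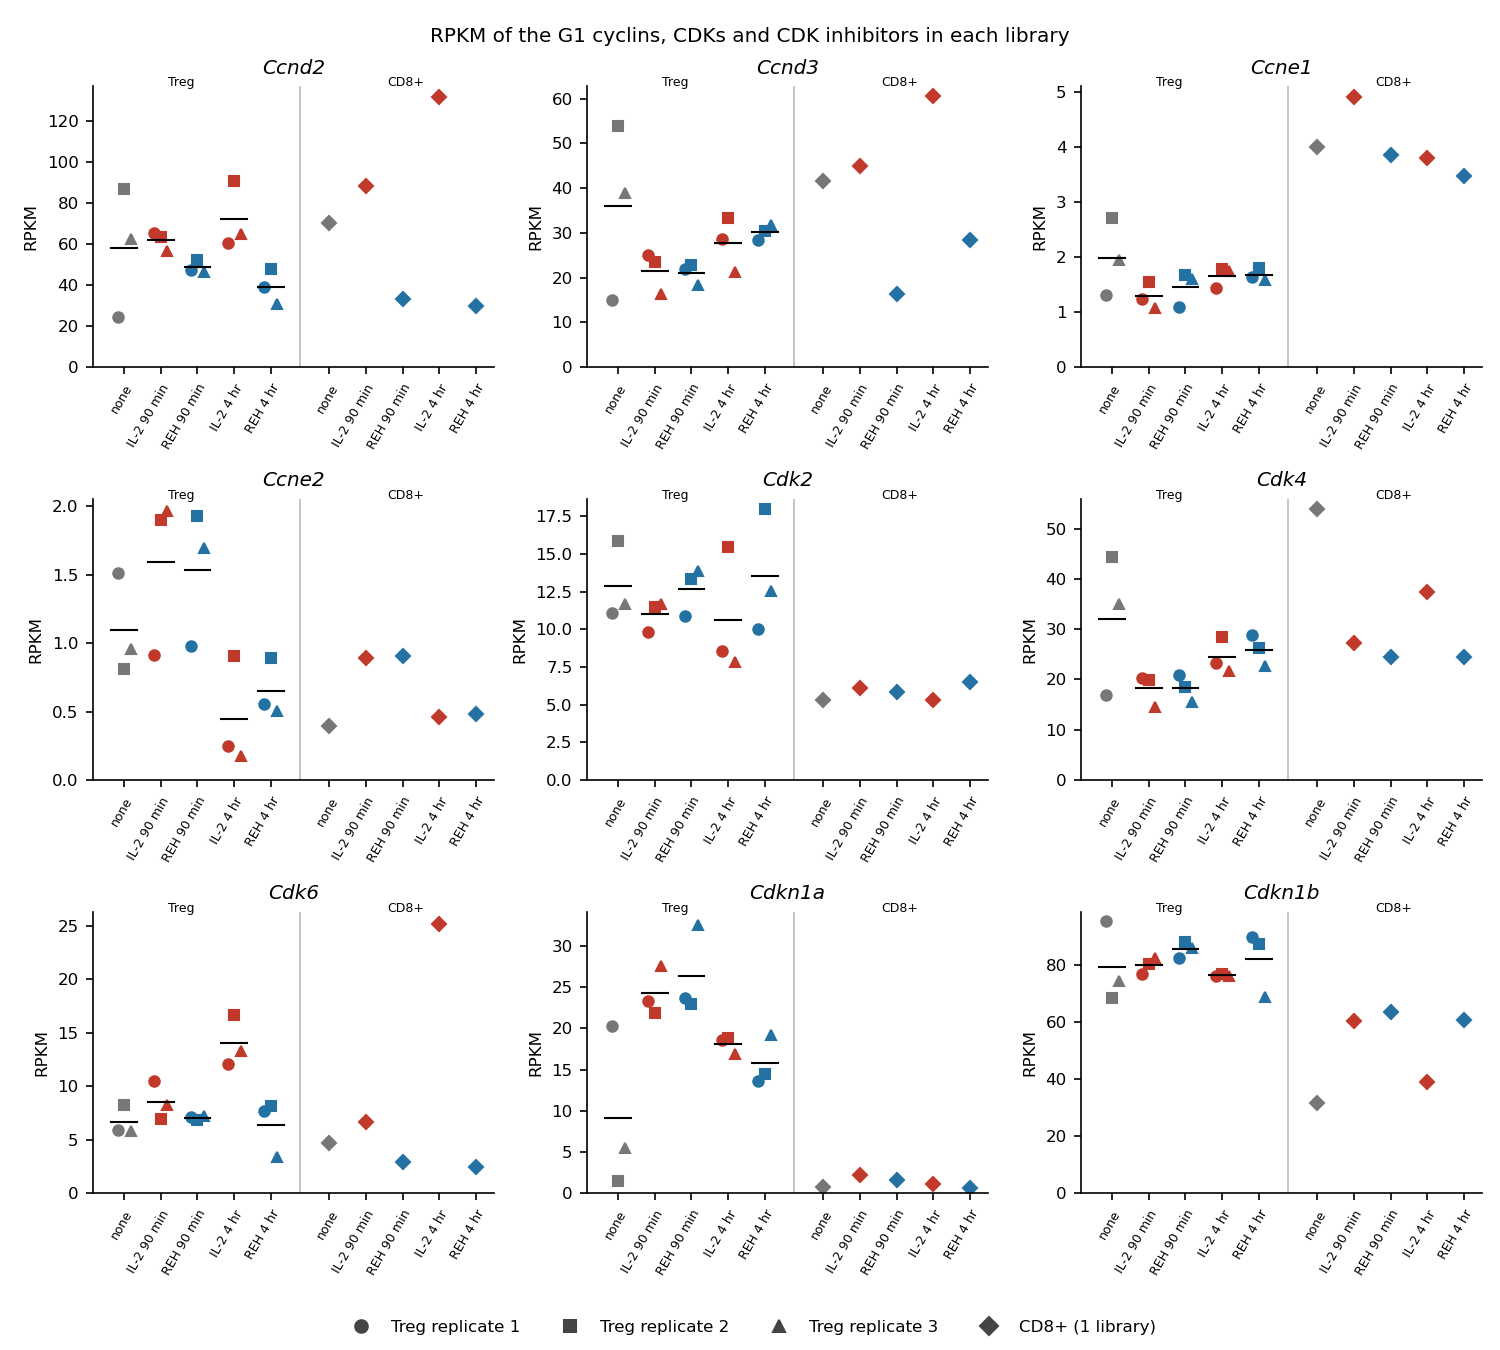
RPKM (vertical axes, each from 0) of the 9 genes in all 20 libraries, with Tregs on the left and CD8+ T cells on the right of each panel; grey is unstimulated, red IL-2 and blue IL-2-REH, point shapes mark the Treg replicate number and bars are means of 3 Treg libraries. Cdk6 and Ccnd2 are highest in the CD8+ library given IL-2 for 4 hr (25.2 and 131.5 RPKM), and unstimulated Treg replicate 1 lies apart from the other unstimulated libraries for Ccnd2, Ccnd3, Cdk4 and Cdkn1a.

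Cdk6, one of the kinases that partner the D-type cyclins, was the only gene of this set called higher in Tregs given IL-2 with all libraries in the fit. Its RPKM was 5.88, 8.24 and 5.80 in the unstimulated replicates 1, 2 and 3, and 12.1, 16.7 and 13.3 after 4 hr of IL-2. All 3 IL-2 libraries were above all 3 unstimulated libraries. The difference was 2.23-fold, a log2 fold change of 1.16 with a standard error (SE) of 0.25 (95% interval 0.62 to 1.69), and passed the threshold of an adjusted p under 0.05 in edgeR's quasi-likelihood test (adjusted p = 0.029). At 90 min of IL-2 the 3 values were 10.5, 6.88 and 8.24 RPKM, which overlap the unstimulated group (log2 fold change 0.51, edgeR adjusted p = 0.382). Without unstimulated replicate 1 the 4 hr value was again 1.16 (edgeR adjusted p = 0.0282). The call rested on single libraries elsewhere. The edgeR adjusted p was 0.0789 and 0.15 without unstimulated replicate 2 or 3, and 0.0959 and 0.0828 without replicate 2 or 3 of the IL-2 group. It was 0.114 with only the compared groups in the edgeR fit, and 0.0624 by limma on log2(RPKM + 1). Over all 18 alternative settings (edgeR, DESeq2 and limma) the adjusted p ran from 0.000848 to 0.448, and 9 settings lost the call.

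Cdk6 was the single called gene among the 9 in the comparison of IL-2 at 4 hr with no cytokine, in which 2.27% of the 14992 genes tested were called and 14.7% had RPKM that did not overlap between the groups. No member was called by edgeR with IL-2 at 90 min, where 0.854% of genes were called, with IL-2-REH at 90 min (0.0934%) or with IL-2-REH at 4 hr (0.314%). At an unadjusted p under 0.05, edgeR counted 2, 2 and 0 members in these 3 comparisons, beside 2068, 1702 and 2000 of the 14992 genes. DESeq2 called 0 members in each, and 552 genes with IL-2 at 90 min. Alternatives other than leaving out libraries called up to 109 genes with IL-2-REH at 90 min and up to 579 at 4 hr. The number of members whose groups did not overlap was 1 in the 90 min IL-2 comparison (12.7% of all genes), 1 in the 90 min IL-2-REH comparison (9.99%) and 0 in the 4 hr IL-2-REH comparison (13.7%).

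IL-2-REH left Cdk6 near its unstimulated level. The values were 7.10, 6.80 and 7.23 RPKM after 90 min and 7.64, 8.17 and 3.42 RPKM after 4 hr. Against unstimulated cells the log2 fold change at 4 hr was -0.05 (SE 0.25, edgeR adjusted p = 0.951). Replicate 3 was the low library of that group, and its Cdk6 value rested on 511 reads.

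At the same dose and time, IL-2-REH gave less Cdk6 than IL-2. At 4 hr Cdk6 was lower with IL-2-REH in 3 of 3 pairs of same-numbered replicates and the groups did not overlap, with a log2 fold change of -1.21 (SE 0.25, 95% interval -1.74 to -0.67). This difference of 2.31-fold had an unadjusted p of 0.000259 but did not pass after adjustment over all genes in edgeR (adjusted p = 0.204, and 0.126 once replicate numbers were a block). It did pass in DESeq2 (adjusted p = 0.00288), and over all alternative settings the adjusted p ran from 0.00288 to 1.0. Without IL-2-REH replicate 3 the log2 fold change was -0.93.

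Ccnd2, the D-type cyclin with the most RNA here, also differed between the cytokines without passing the test. With IL-2 for 4 hr its RPKM was 60.2, 90.8 and 64.6, and with IL-2-REH it was 38.8, 47.6 and 30.6. Every IL-2 library was above every IL-2-REH library. The log2 fold change was -0.95 (SE 0.29, 95% interval -1.58 to -0.32), with an edgeR adjusted p of 0.903 and a DESeq2 adjusted p of 0.19. At 90 min the groups were again apart, at 65.4, 63.2 and 56.5 RPKM with IL-2 against 47.3, 51.9 and 46.5 with IL-2-REH, a log2 fold change of -0.34 (95% interval -0.97 to 0.28, edgeR adjusted p = 1.0).

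Of the 9 genes, Cdk6 and Ccnd2 were the 2 whose values under IL-2-REH stayed clear of those under IL-2 at 4 hr, where 7.8% of all genes did not overlap and 0.0267% were called by edgeR. At 90 min the 2 were Ccnd2 and Cdkn1b (5.46% of all genes, 0.0133% called), and Cdkn1b differed by only 0.09 on the log2 scale. edgeR called 0 members in either comparison, with 0 at an unadjusted p under 0.05 at 90 min and 2 at 4 hr, and DESeq2 called 0 and 1. Over all 14992 genes, 149 and 559 were at that unadjusted level at 90 min and 4 hr. Alternatives other than leaving out libraries called up to 14 and 58 genes. For the other members the 95% intervals of the 4 hr difference were -0.45 to 0.49 for Cdk4, -0.53 to 0.67 for Ccnd3, -0.24 to 0.84 for Cdk2, -0.67 to 0.56 for Ccne1, -0.45 to 0.50 for Cdkn1b, -1.62 to 1.10 for Cdkn1a and -0.67 to 1.70 for Ccne2. The intervals leave room for differences of different size between genes, narrowest for Cdk4 and Cdkn1b and widest for Cdkn1a and Ccne2. The change of the cytokine difference from 90 min to 4 hr, tested as an interaction after the data had been seen, was -0.95 for Cdk6 (SE 0.35, unadjusted p = 0.0167, edgeR adjusted p = 1.0), and 0 of 14992 genes passed in that test, with 47 at an unadjusted p under 0.05.

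**Figure D2:**
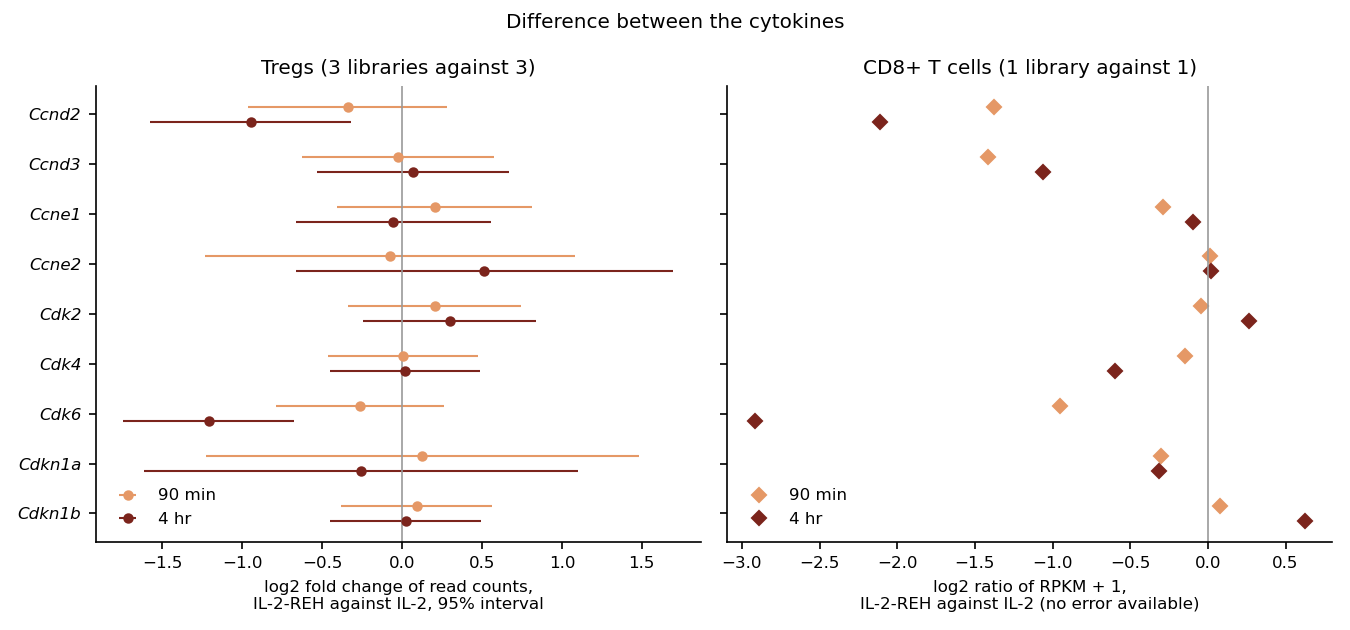
Difference between IL-2-REH and IL-2 for each gene at 90 min and 4 hr: on the left the edgeR log2 fold change in Tregs with its 95% interval, on the right the log2 ratio of RPKM + 1 between single CD8+ libraries, which has no error. In Tregs the 4 hr intervals of Cdk6 (-1.74 to -0.67) and Ccnd2 (-1.58 to -0.32) lie below 0; in CD8+ T cells Cdk6 (-2.92) and Ccnd2 (-2.11) are the lowest points at 4 hr.

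The inhibitor Cdkn1a, whose product p21 is a p53 target that blocks CDK2, differed 13.6-fold among the unstimulated Treg libraries. Its RPKM there was 20.3, 1.49 and 5.50 in replicates 1, 2 and 3. It was 23.4, 21.8 and 27.6 after 90 min of IL-2 and 23.7, 23.0 and 32.5 after 90 min of IL-2-REH. It was 18.6, 18.8 and 16.9 after 4 hr of IL-2 and 13.6, 14.5 and 19.2 after 4 hr of IL-2-REH. Both 90 min groups lay above all unstimulated libraries, and at 4 hr unstimulated replicate 1 lay above every IL-2-REH and IL-2 library. The log2 fold changes at 90 min were 1.45 for IL-2 (SE 0.65, edgeR adjusted p = 0.342) and 1.58 for IL-2-REH (SE 0.65, edgeR adjusted p = 0.404), and at 4 hr they were 0.94 and 0.69 (edgeR adjusted p = 0.466 and 0.695). Without unstimulated replicate 1, Cdkn1a was called in all 4 comparisons, with log2 fold changes of 2.97 and 3.10 at 90 min (edgeR adjusted p = 0.00258 and 0.00228) and 2.46 and 2.199 at 4 hr (edgeR adjusted p = 0.00978 and 0.0186). Those are differences of 7.85-fold and 8.56-fold at 90 min, and 5.49-fold and 4.59-fold at 4 hr. Over all settings that left out libraries, the lowest log2 fold changes for IL-2 and IL-2-REH were 0.94 and 1.01 at 90 min. At 4 hr they were 0.42 and 0.16.

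Ccnd3 and Cdk4, a D-type cyclin and its other kinase partner, were lower on average with cytokine, and their calls also turned on unstimulated replicate 1. Unstimulated Ccnd3 was 15.04, 53.9 and 38.8 RPKM. At 90 min it was 24.9, 23.4 and 16.3 under IL-2 and 21.9, 22.7 and 18.4 under IL-2-REH. Unstimulated replicates 2 and 3 were above every stimulated Treg library, whose highest value was 33.4, and replicate 1 was below all of them. With all libraries the log2 fold changes at 90 min were -0.56 for IL-2 and -0.58 for IL-2-REH (edgeR adjusted p = 0.4 and 0.449), and without replicate 1 they were -0.88 and -0.91 (edgeR adjusted p = 0.00657 and 0.00606). Without unstimulated replicate 2 or 3 instead, the value for IL-2 was -0.27 or -0.45 and was not called.

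Cdk4 was 17.0, 44.3 and 34.996 RPKM in the unstimulated replicates, 20.3, 19.8 and 14.6 after 90 min of IL-2, and 21.0, 18.6 and 15.5 after 90 min of IL-2-REH. Replicates 2 and 3 were again above all 12 stimulated libraries, whose range was 14.6 to 28.9. The 90 min log2 fold change of -0.64 with either cytokine (edgeR adjusted p = 0.22 and 0.392) became -0.90 and -0.89 without replicate 1 (edgeR adjusted p = 0.00249 and 0.00267). At 4 hr, Cdk4 with IL-2 (-0.54, edgeR adjusted p = 0.0433) and Ccnd2 with IL-2-REH (-0.85, edgeR adjusted p = 0.0221) were called without replicate 1, from -0.28 and -0.52 with it (edgeR adjusted p = 0.532 and 0.478).

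Counted over the 9 genes, leaving out unstimulated replicate 1 gave 3 called members with IL-2 at 90 min (Ccnd3, Cdk4 and Cdkn1a), the same 3 with IL-2-REH at 90 min, 3 with IL-2 at 4 hr (Cdk4, Cdk6 and Cdkn1a) and 2 with IL-2-REH at 4 hr (Ccnd2 and Cdkn1a). Over all genes that setting called 12.9%, 12.1%, 8.87% and 6.93% in the same order. Leaving out unstimulated replicate 2 or 3 instead gave 0 called members with IL-2 at 90 min. Few genes of any kind were called in these settings, 46 of 15442 and 44 of 15471. Replicate 1 was set apart in part by these same genes, so their calls without it are not a separate test. The 3 unstimulated libraries differed in other RNA as well. Replicate 1 had the lowest summed RPKM of the 7 mitosis markers (18.5 against up to 53.9) and of macrophage and monocyte markers (14.6 against up to 54.5, Lyz2 being the main part), NK cell markers (0.256 against up to 6.23), B cell markers (2.37 against up to 16.5) and erythroid markers (7.73 against up to 230). The low macrophage and NK sums were not particular to the unstimulated library. Replicate 1 also had the lowest of both in every stimulated Treg group. Its sums there were 7.66 to 14.4 RPKM for macrophage and monocyte markers and 0.0676 to 0.387 for NK cell markers. Erythroid RNA was high in replicate 3 of every Treg group, with sums of 132 to 230 RPKM. The part of these differences in the values of Cdkn1a, Ccnd3 and Cdk4 was not tested.

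**Figure D3:**
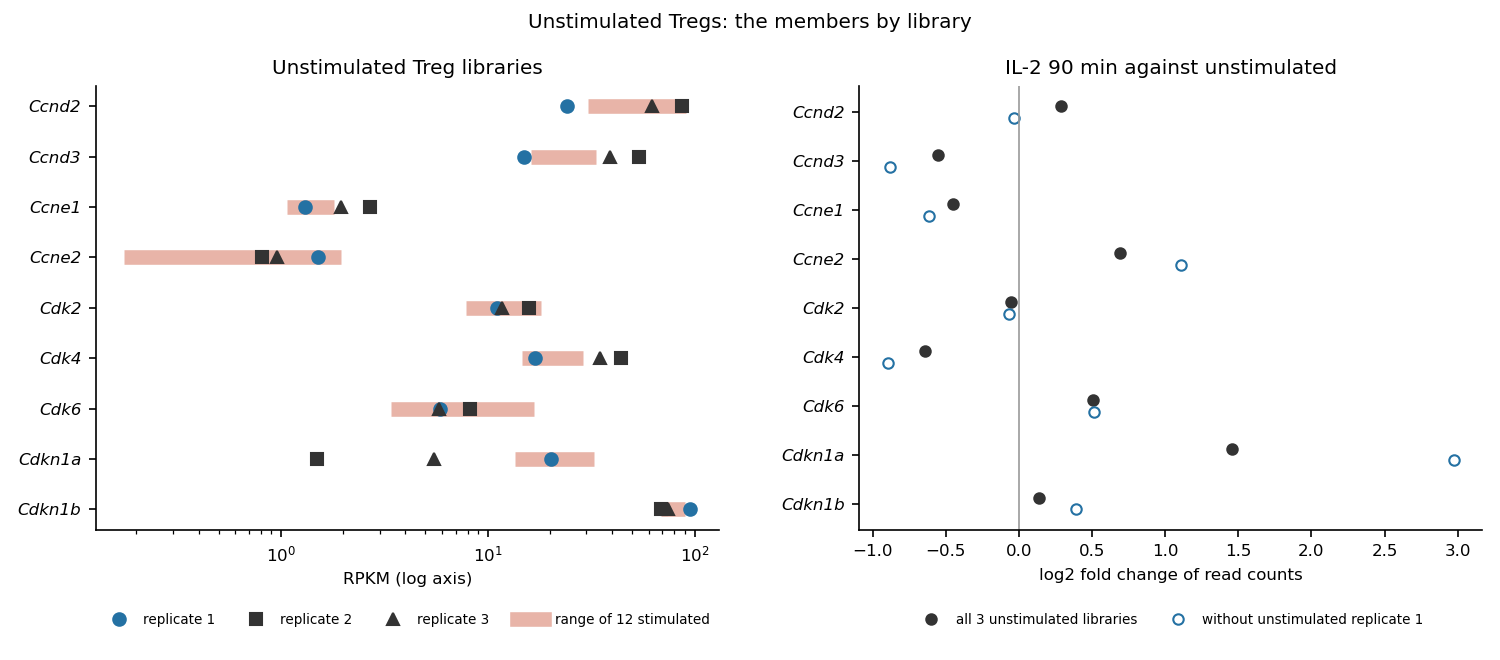
Left: RPKM (log axis) of the 9 genes in the 3 unstimulated Treg libraries, drawn over the range of the 12 stimulated Treg libraries. Right: edgeR log2 fold change for IL-2 at 90 min against unstimulated cells with all libraries (filled) and without unstimulated replicate 1 (open); Cdkn1a moves from 1.45 to 2.97 and Cdk4 from -0.64 to -0.90, while Cdk6 stays at 0.51.

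The E-type cyclins were low throughout. Ccne2 was 0.916, 1.90 and 1.96 RPKM after 90 min of IL-2 and 0.252, 0.908 and 0.175 after 4 hr. All 3 values at 4 hr were below all 3 values at 90 min. The log2 fold change from 90 min to 4 hr was -2.01 (SE 0.56, unadjusted p = 0.0031), which did not pass in edgeR (adjusted p = 0.205) and passed in DESeq2 (adjusted p = 0.0201). It ran from -2.94 without replicate 2 of the 4 hr group to -1.36 without replicate 3 of every group, and was -0.85 by limma on log2(RPKM + 1). With IL-2-REH the 3 values were 0.976, 1.92 and 1.69 at 90 min and 0.552, 0.893 and 0.504 at 4 hr, a log2 fold change of -1.42 (SE 0.55, edgeR adjusted p = 0.287). Ccne1 stayed between 1.08 and 1.81 RPKM in all stimulated Treg libraries, below unstimulated replicates 2 and 3 (2.71 and 1.95) and around replicate 1 (1.31).

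Between 90 min and 4 hr, 4 of the 9 genes did not overlap with IL-2 (Ccne2 and Cdkn1a lower, Cdk4 and Cdk6 higher at 4 hr) and 4 with IL-2-REH (Ccne2 and Cdkn1a lower, Ccnd3 and Cdk4 higher). Over all genes, 17.1% and 19.1% did not overlap in these comparisons. edgeR called 0.0% of genes in either, and 0 members, with 2 and 1 members and 2555 and 2187 genes at an unadjusted p under 0.05. DESeq2 called 373 and 253 genes, 1 and 0 of them members. The Cdk6 log2 fold change from 90 min to 4 hr was 0.65 with IL-2 (95% interval 0.12 to 1.18, edgeR adjusted p = 0.235) and -0.30 with IL-2-REH (95% interval -0.82 to 0.23). For Cdkn1a the corresponding values were -0.51 and -0.89 (edgeR adjusted p = 0.696 and 0.526).

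Cdk2, the partner of cyclin E, and Cdkn1b, the gene of p27, were called by edgeR in none of the 8 Treg comparisons. Over the 4 with unstimulated cells the Cdk2 log2 fold change lay between -0.22 and 0.15 and that of Cdkn1b between -0.01 and 0.23. With unstimulated replicate 1 left out, the Cdkn1b values were 0.39 and 0.24 with IL-2 and 0.48 and 0.27 with IL-2-REH at 90 min and 4 hr, and none was called (lowest edgeR adjusted p = 0.155). Cdk2 was highest in replicate 2 of the unstimulated and both 4 hr groups (15.8, 15.5 and 18.0 RPKM), against 7.82 to 12.6 in the other libraries of those groups. Cdkn1b after 4 hr of IL-2 was 76.2, 77.0 and 76.2 RPKM, with an SD of 0.499.

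In CD8+ T cells each condition was 1 library, so differences have no replicate check and no test, and a gene is counted when its log2 ratio of RPKM + 1 exceeds 1 in size. Of the 9 members, 8 reached the mean of 1 RPKM that was required, and Ccne2 did not. Cdk6 was again highest with IL-2 at 4 hr. It was 4.69 RPKM unstimulated, 6.63 with IL-2 at 90 min and 25.2 at 4 hr, resting on 712, 1139 and 4210 reads. With IL-2-REH it was 2.95 at 90 min and 2.47 at 4 hr. The 4 hr library with IL-2 had 5.36 times the unstimulated level and 10.2 times the level with IL-2-REH (log2 ratio of IL-2-REH to IL-2 -2.92).

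Ccnd2 in CD8+ T cells was 70.0 RPKM unstimulated, 88.2 and 131.5 with IL-2 at 90 min and 4 hr, and 33.3 and 29.7 with IL-2-REH. The cytokines thus lay on opposite sides of the unstimulated library, and at 4 hr the IL-2 library had 4.42 times the Ccnd2 of the IL-2-REH library (log2 ratio -2.11). Ccnd3 followed the same order at 41.7 RPKM unstimulated, 44.9 and 60.6 with IL-2, and 16.2 and 28.5 with IL-2-REH. Its log2 ratio of IL-2-REH to IL-2 was -1.42 at 90 min and -1.06 at 4 hr, while in Tregs the same contrast was -0.02 and 0.07 in edgeR's log2 fold change. Whether the cytokine difference itself differed between the cell types was not tested, with 1 CD8+ library per group.

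Cdk4 was lower in all 4 stimulated CD8+ libraries, at 27.3 and 37.4 RPKM with IL-2 and 24.5 and 24.4 with IL-2-REH, than in the unstimulated one at 53.9. Cdkn1b went the other way, from 31.7 unstimulated to 60.4 and 39.0 with IL-2 and 63.7 and 60.6 with IL-2-REH. Cdkn1a was low, at 0.759 unstimulated, 2.15 and 1.07 with IL-2, and 1.56 and 0.658 with IL-2-REH. Ccne1 stayed between 3.48 and 4.92 RPKM and Cdk2 between 5.28 and 6.54. The unstimulated CD8+ library also had the highest summed RPKM of macrophage and monocyte markers (28.8 against 13.6 to 18.3), B cell markers (10.7 against 3.29 to 5.34), NK cell markers (15.99 against 8.57 to 12.8), erythroid markers (7.85 against 2.31 to 4.78) and of Cd8a and Cd8b1 (728 against 282 to 493). The part of these in the differences from the unstimulated CD8+ library was not tested.

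**Figure D4:**
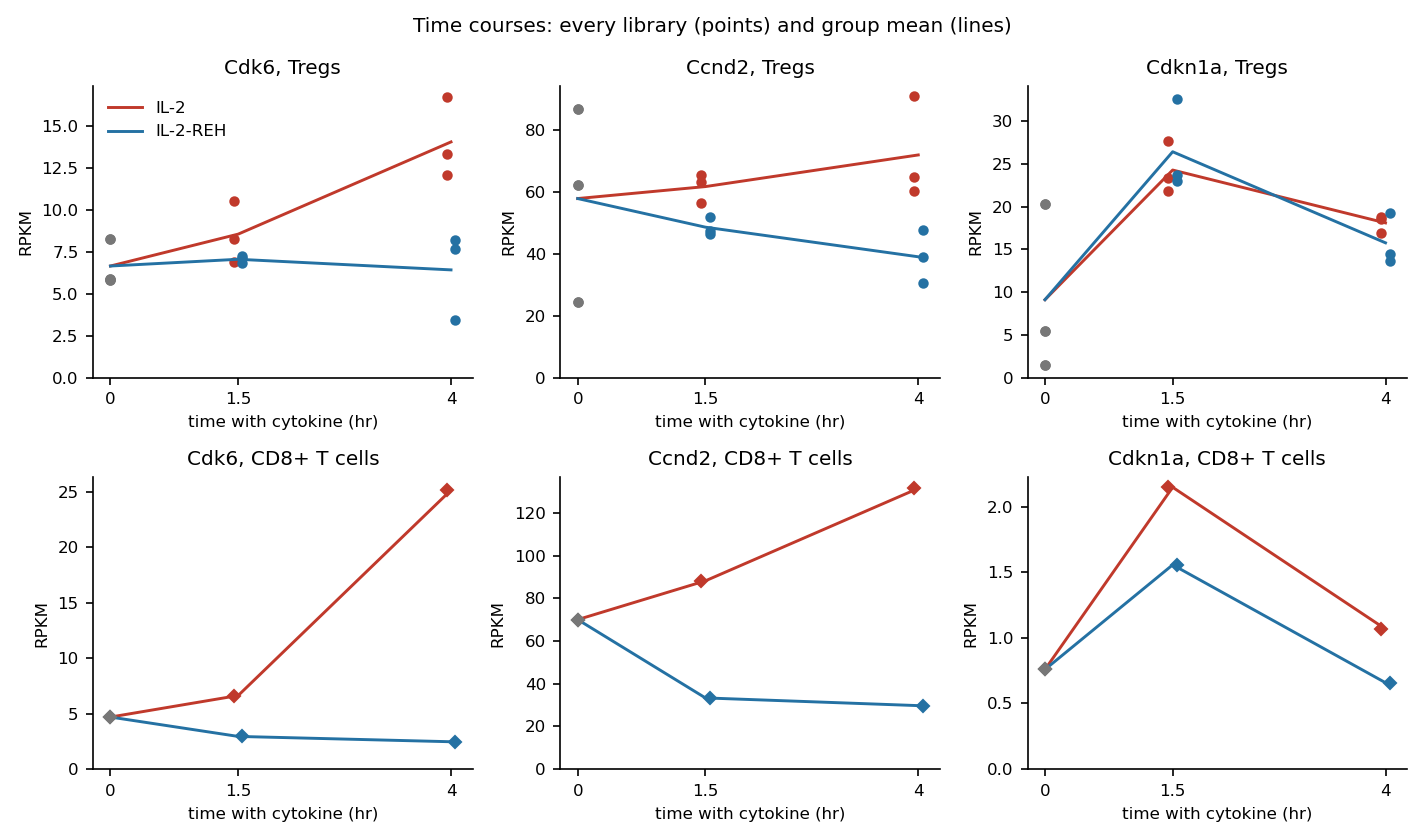
RPKM of Cdk6, Ccnd2 and Cdkn1a against hours with cytokine in Tregs (top, 3 libraries per point in time and treatment) and CD8+ T cells (bottom, 1 library); lines join group means and the unstimulated libraries are the shared point at 0 hr. Cdk6 separates by cytokine at 4 hr in both cell types, whereas Cdkn1a runs close together for the 2 cytokines in Tregs and stays at or below 2.15 RPKM in CD8+ T cells.

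With IL-2-REH against IL-2 in CD8+ T cells, 2 of 8 members passed the fold at 90 min (Ccnd2 and Ccnd3, both lower), where 0.868% of 10021 genes did, and 3 of 8 at 4 hr (Ccnd2, Ccnd3 and Cdk6, all lower), where 2.23% did. Against the unstimulated library, 0 of 8 passed with IL-2 at 90 min (7.24% of genes), 1 with IL-2 at 4 hr (Cdk6, higher, 4.71%), 3 with IL-2-REH at 90 min (Ccnd2, Ccnd3 and Cdk4, lower, 8.57%) and 2 with IL-2-REH at 4 hr (Ccnd2 and Cdk4, lower, 6.11%). From 90 min to 4 hr, Cdk6 alone passed with IL-2 (higher, log2 ratio 1.78, 2.0% of genes) and 0 passed with IL-2-REH (1.89%). The median log2 ratio of all genes was -0.12 in the 90 min comparison of IL-2-REH with no cytokine. With the libraries centred on their medians that comparison had 2 members lower (Ccnd3 and Cdk4) and 1 higher (Cdkn1b), and with TMM scaling 1 lower (Ccnd3) and 1 higher (Cdkn1b). Shares over all genes were not computed for centring or TMM scaling. The 4 comparisons with no cytokine share 1 unstimulated library, whose own error is not known.

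Between the cell types, unstimulated Tregs had more of both inhibitors. Cdkn1a had a mean of 9.11 RPKM (SD 9.92, n = 3) in Tregs and 0.759 in the CD8+ library, a difference of 2.52 in the log2 of the mean RPKM + 1, and the lowest Treg library at 1.49 was still above the CD8+ library. That difference turned on unstimulated Treg replicate 1: it was 1.35 without that library, 2.98 without replicate 2 and 2.76 without replicate 3. Mean Cdkn1b was 2.51 times the CD8+ level (log2 difference 1.30) and Cdk2 2.43 times (1.14). These 3 of 8 members passed a log2 difference of 1, as did 11.3% of 10458 genes, and with centred libraries Cdk2 no longer passed. Without replicate 1 the same 3 passed, and without replicate 2 Cdk2 did not (0.98) while Cdk4 passed as lower in Tregs. Over all 5 conditions, Ccne1 was higher in each of the 5 CD8+ libraries than in any of the 15 Treg libraries, and Cdk2 and Cdkn1b were lower in each. Of all genes, 9.98% had the 5 CD8+ libraries outside the Treg range. Cdk6 was above every IL-2 Treg library in the CD8+ library given IL-2 for 4 hr, and below the Treg libraries of the same condition in the other 4 conditions.

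The wider pathway was read from lists of genes. Of 15 other G1 regulators (among them Ccnd1, Ccna2, Cdk1, the INK4 inhibitors and Skp2), 13 pocket proteins, E2F and DP factors, 20 S phase genes and 7 mitosis markers, edgeR called 0 in each of the 8 Treg comparisons. The median log2 fold change with IL-2 at 4 hr was -0.14 for the other G1 regulators, -0.31 for the pocket protein, E2F and DP list and -0.38 for the S phase genes, beside -0.0020 over all genes. Without unstimulated replicate 1, E2f2, an activating E2F, was lower in all 4 comparisons with unstimulated cells (at 90 min and 4 hr, log2 fold changes of -1.86 and -1.76 under IL-2 and of -1.59 and -1.37 under IL-2-REH, edgeR adjusted p between 0.00254 and 0.0215). In the same setting the INK4 gene Cdkn2d, an inhibitor of CDK4 and CDK6, was lower with IL-2 (-1.16 and -0.92, edgeR adjusted p = 0.00866 and 0.0361), and Cdkn1c, the third member of the p21 family, was higher in 3 of the 4 comparisons (1.55 to 2.05). The other calls of these 4 lists in that setting were Rbl1, lower at 90 min with either cytokine (-0.91), Tk1, lower at 4 hr with either (-1.54), Gins1, lower with IL-2 at 4 hr (-1.32), Plk1, lower at 90 min with either (-1.34 and -1.27), Ccnb1, lower with IL-2-REH at 90 min (-1.35), and Mcm6, higher with IL-2-REH at 90 min (0.87). In the omitted replicate 1, all of these genes except Ccnb1 lay within the range of the stimulated Treg libraries. E2f2 was 2.06 RPKM there (stimulated range 1.67 to 4.54), Cdkn1c 3.22 (1.99 to 6.89) and Cdkn2d 12.8 (7.79 to 16.9). Ccnb1, at 0.632, was below every stimulated Treg library, the lowest of which was 0.839. In CD8+ T cells, 0 of the members of these 4 lists that reached 1 RPKM passed the fold in any comparison.

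Targets of the factors known to act on these genes were read in the same way. Of 11 IL-2 and STAT5 targets, 4 rose in Tregs with IL-2 at 90 min (Cish, Socs1, Socs2 and Pim2), 4 at 4 hr (Cish, Socs1, Socs2 and Il2ra), 1 with IL-2-REH at 90 min (Cish) and 0 with IL-2-REH at 4 hr. The counts without unstimulated replicate 1 were, in the same order, 7, 4, 2 and 3, all higher, and the 3 genes called with IL-2-REH at 4 hr were Cish, Pim1 and Socs2 (log2 fold changes 0.76, 0.84 and 1.05). Cish, a feedback inhibitor of the receptor, had a log2 fold change of 2.12 under IL-2 and 1.10 under IL-2-REH at 90 min (edgeR adjusted p = 7.57e-05 and 0.0343). In CD8+ T cells, 7 and 8 of the 11 were past the fold with IL-2 at 90 min and 4 hr, all higher, where 7.24% and 4.71% of all genes were past it in either direction. For IL-2-REH against no cytokine 0 were higher and 1 and 3 were lower (8.57% and 6.11% of all genes). Of 13 p53 targets tested besides Cdkn1a, Plk2 alone was called, lower at 4 hr of IL-2 (-2.06, edgeR adjusted p = 0.0128) and of IL-2-REH (-2.13, edgeR adjusted p = 0.0324). Leaving out unstimulated replicate 1, Sesn1 was also called, lower with IL-2 (-0.70 at 90 min and -0.74 at 4 hr), and Sesn2 was called higher with IL-2-REH at 90 min (1.05). In the omitted library Sesn1 was 27.9 RPKM and Sesn2 5.12. Both lay within the range of the stimulated Treg libraries (21.5 to 36.5 and 3.61 to 6.09). Of 14 FOXO targets, the group to which p27 also belongs, Il7r alone was called, lower with IL-2 at 4 hr (-1.37, edgeR adjusted p = 0.0232). The FOXO list without unstimulated replicate 1 had 3 genes higher and 3 lower with IL-2 at 90 min, 0 and 3 at 4 hr, 5 and 1 with IL-2-REH at 90 min, and 1 and 0 at 4 hr. Ccr7 (2.61) and Bcl6 (2.41) were the highest of these with IL-2-REH at 90 min, and Pik3ip1 (-0.79) was the lower one. In the omitted replicate 1, Bcl6 was 52.6 RPKM, above the 3 libraries with IL-2-REH at 90 min (23.6, 46.9 and 36.2). Ccr7 was 438.6 RPKM there, within the range of those libraries (407.8 to 588.2).

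Some genes followed single members closely over the 15 Treg libraries. By Pearson correlation of log2(RPKM + 1) among 10473 genes, Cdk6 was most like Mre11a, Cast and Map3k5 (r of 0.90, 0.89 and 0.89). Cdkn1a was most like Fosl2, Crem and Got1 (0.95, 0.92 and 0.92). The closest gene was Bri3bp for Cdk4 (0.98), Parp11 for Ccnd3 (0.97), Tfb2m for Ccne2 (0.97), Ttc3 for Cdk2 (0.95), Glt25d1 for Ccne1 (0.93) and Ccng2 for Cdkn1b (0.84). Within the set, Ccnd3 and Cdk4 had an r of 0.94, Ccnd2 and Cdk6 0.68, and Cdkn1a had -0.89 with Cdk4 and -0.82 with Ccnd3. These libraries share groups and replicate numbers, and the values describe the profiles only.

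The genes lie on 6 chromosomes of mouse build GRCm38 (mm10), and the positions are those of GENCODE M21. Cdk6 spans chr5:3341485-3531008 on the plus strand, Ccnd2 chr6:127125162-127152193 on the minus strand, Cdkn1a chr17:29090976-29100727 and Cdkn1b chr6:134920401-134925513 on the plus strand. Cdk6 reads were counted over a transcript of 2470 bases, while the longest annotated Cdk6 transcript has 11525 bases. Exons of genes on the opposite strand cover 19.7% of the annotated Cdk4 exon bases (Tspan31) and 17.4% of those of Ccne2 (Ints8), and 7.68% or less of the other members' exon bases, so reads of such pairs cannot be told apart unless counting used strand, which is not stated in the sources used here.

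Promoter sequence, 250 bases before to 50 after the transcript start, was held for 7 of the 9 genes in the RefSeq table for GRCm38.p6 (9 promoters). It was searched on both strands for the STAT motif TTCNNNGAA, the E2F motif TTTNNCGC (read as GCGNNAAA on the other strand) and the FOXO motif GTAAACA. The 3 matches are shown because they fall in 2 kinases and a cyclin of the set, one of them the called gene Cdk6. Capitals mark the motif, and each window is written 5′ to 3′ on the gene's strand.
Cdk6 (chr5:3343665-3343732, plus strand, E2F motif): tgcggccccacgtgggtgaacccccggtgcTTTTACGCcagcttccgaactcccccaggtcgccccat
Cdk2 (chr10:128705154-128705221, minus strand, E2F motif): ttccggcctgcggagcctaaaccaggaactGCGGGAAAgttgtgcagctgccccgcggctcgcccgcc
Ccnd3 (chr17:47504801-47504844, plus strand, FOXO motif): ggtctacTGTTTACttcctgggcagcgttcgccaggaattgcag
The E2F motif starts at -198 in Cdk6 and -140 in Cdk2 relative to the transcript start, and the FOXO motif at -243 in Ccnd3. Among 32851 promoters of the same length the E2F motif was found in 5.17%, the FOXO motif in 3.65% and the STAT motif in 8.30%. The STAT letters were found in 0 of the 9 member promoters. N stands for any base, so a match need not be a preferred form of the site. The Cdk6 match (TTTTACGC) has TA at the N positions of the E2F letters. A match describes these letters in this window and is not a measured binding site.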

How the data were processed

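RNA-seq libraries of mouse Tregs (15) and CD8+ T cells (5) were analyzed from the deposited tables, which list raw read counts and RPKM per transcript. Per the labels, the authors sequenced poly(A) libraries on a HiSeq3000, and the submitters' processing notes name TopHat2 2.1.1, Bowtie2 2.2.6, SAMtools 0.1.8, bedtools 2.25.0 and build mm10. RPKM was computed by the authors. Here, 1 transcript per symbol (most reads) was kept. Deposited counts of all 15 Treg libraries were fitted together with edgeR 4.0.16 (R 4.3.3; TMM, filterByExpr, quasi-likelihood test, 14992 genes), with 1 mean per group, and p-values were adjusted by Benjamini-Hochberg over all genes, with a threshold of 0.05. CD8+ libraries were compared by log2(RPKM + 1), with a mean RPKM of at least 1. DESeq2 1.42.0, limma 3.58.1, other scalings, filters and transcripts, and leaving out libraries were alternatives. The edgeR fit was tried on simulated counts for 1 comparison, IL-2 at 4 hr against unstimulated Tregs. The simulation gave every gene the same spread and had no replicate effect, so it does not cover those features of the data. DESeq2 and limma were not tried in this way. Replicate numbers paired the samples: deviations from group means correlated at 0.54 on average, and at least 0.12, over the 30 same-numbered pairs, against -0.26 for different numbers. The value for different numbers follows from centring each group on its mean and is not separate evidence. The genes and lists were chosen with earlier results of these data known. All 9 members are named, with up to 4 called genes per pathway list and the genes most like a member. Those for Ccnd2 are not reported here. Genes named for the fit without unstimulated Treg replicate 1 were chosen after their values were seen.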

Additional observations from a re-analysis of the deposited data

Results flagged for a closer look

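For 6 values the single CD8+ pair moved in the direction opposite to all 3 same-numbered Treg pairs (log2 ratio of RPKM + 1), and none of these differences was tested. Ccne1 with IL-2 at 90 min against unstimulated cells was 0.24 in CD8+ T cells and -0.54 to -0.05 in Tregs. Cdk2 in that comparison was 0.17 in CD8+ T cells and -0.43 to -0.0012 in Tregs. Cdk2 with IL-2-REH against IL-2 at 90 min was -0.046 in CD8+ T cells and 0.14 to 0.23 in Tregs, and Cdkn1a in the same comparison was -0.30 in CD8+ T cells and 0.021 to 0.23 in Tregs. Ccne1 from 90 min to 4 hr of IL-2 was -0.30 in CD8+ T cells and 0.13 to 0.41 in Tregs. Cdk4 from 90 min to 4 hr of IL-2-REH was -0.0071 in CD8+ T cells and 0.44 to 0.52 in Tregs.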

How the results depend on the processing

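No direction of a called value turned under any alternative. The number of called members over leaving out libraries ran from 0 to 3 with IL-2 at 90 min, 0 to 3 with IL-2 at 4 hr, 0 to 3 with IL-2-REH at 90 min and 0 to 2 with IL-2-REH at 4 hr. Over the same settings and in the same order, the genes called ran from 0 to 2509, 3 to 1938, 0 to 2269 and 0 to 1545. With IL-2 at 4 hr the number of called members was 0 by limma on log2(RPKM + 1), by limma on log2(RPKM + 0.1) and with only the compared groups in the fit. By DESeq2 it was 1 for IL-2-REH against IL-2 at 4 hr (Cdk6) and 1 for IL-2 at 4 hr against 90 min (Ccne2). In CD8+ T cells a pseudocount of 0.1 gave 1 member past the fold with IL-2 at 90 min and 1 from 90 min to 4 hr of IL-2-REH, both Cdkn1a, and TMM scaling gave 1 in the former. A log2 threshold of 2 left 0 members for IL-2-REH at 90 min, IL-2-REH at 4 hr, IL-2-REH against IL-2 at 90 min and IL-2 from 90 min to 4 hr, and 1 between unstimulated cell types. Shares over all genes were not computed for these alternative fold settings. The causes were not tested. The replicate block changed the call of no member (IL-2 at 4 hr: 1 called, Cdk6, edgeR adjusted p = 0.0167).

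Over all genes, the block moved the edgeR counts from 128 to 275 and from 340 to 1040 with IL-2 at 90 min and 4 hr, from 14 to 32 and from 47 to 454 with IL-2-REH, from 4 to 10 for the cytokines at 4 hr, and from 0 to 58 (IL-2) and 0 to 6 (IL-2-REH) between the times.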
